A study of Mus musculus with 35 samples.

Results

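Actin filaments and microtubules give a blood progenitor its shape, its grip on the marrow niche and the tracks along which it moves its cargo. Here 73 genes of actins, of proteins that nucleate, sever, crosslink or coat actin filaments, of myosins and of tubulins were followed in mouse hematopoietic stem/progenitor cells (HSPCs) with and without the histone demethylase JMJD1B. They were taken by symbol, with a pattern covering actin, actinin, actin-related protein, Arp2/3 subunit, myosin, tropomyosin, cofilin, profilin, talin, vinculin, filamin, villin, zyxin, WASP family and tubulin symbols. The pattern found 73 of the 11982 gene names of the deposited table, and none of the 73 had more than 1 entry.

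The study asked whether JMJD1B removes methyl groups from histone arginine and lysine and thereby keeps genes of HSPCs active. JMJD1B-/- mice carried a gene-trap knockout of Kdm3b, the gene of JMJD1B, made from 129P2 embryonic stem cells, and were compared with WT mice, with the strain labelled 129P2xC57BL/6J. Polyadenylated RNA of bone marrow HSPCs was sequenced in 2 libraries of each genotype, stated to be biological replicates. The study's methods give a range of ages and both sexes for its mice as a whole, and which age or sex lies behind each library is given neither there nor in the labels. The labels do not give how the HSPCs were sorted.

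Monomeric actin joins into filaments that profilin feeds, cofilin severs and the Arp2/3 complex branches. Tropomyosins coat filaments and set which myosins may bind them, while filamins and alpha-actinins tie filaments into networks, and talin, vinculin and zyxin join them to integrins. In blood cells these proteins serve homing, division and migration, and megakaryocytes, the platelet precursors, are especially rich in several of them, among them the beta1 tubulin Tubb1.

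Expression is given in RPKM, the reads of a gene scaled by its length and by the depth of the library, a unit that allows levels of different genes to be compared per length. The read totals behind the libraries were estimated from the values themselves. They came to 17500000 and 24600000 for WT replicates 1 and 2 and to 6100000 and 21000000 for JMJD1B-/- replicates 1 and 2. The value of 3 reads on 1 kb was then 0.171, 0.122, 0.491 and 0.143 RPKM, which covers counting error only. At the depth first estimated for JMJD1B-/- replicate 1, 12200000 reads, all 33 of 33 genes used had even counts in that library, so the total was divided by 2. Whether its reads were counted doubly is unknown, so its total and its floor are uncertain by a factor of 2, and without the division the floor is 0.246 RPKM. Fold changes are on the log2(RPKM + 0.1) scale, JMJD1B-/- minus WT, which understates changes of genes with few reads. Genes were tested with limma across all 11863 genes with a mean of at least 0.5 RPKM, two-sided, with Benjamini-Hochberg adjustment, and all 73 cytoskeleton genes passed that filter. With 2 libraries a genotype, the smallest two-sided p of an exact permutation test is 0.333. The p-values measure only the spread between these libraries.

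Kdm3b itself was read first as a check of the labels. Its level was 31.0 and 24.3 RPKM in WT and 4.00 and 4.63 RPKM in the knockout. Kdm3b lay far lower in each knockout library than in each WT library, with a log2 fold change of −2.65 ± 0.242 (SE) and an adjusted p of 0.0314. The libraries also differed in sex-linked RNA. Xist, the RNA of the inactive X chromosome, reached 332 RPKM in WT replicate 2 against no more than 0.0510 RPKM elsewhere, while the Y-linked gene Eif2s3y had 50.9, 1.33, 64.5 and 59.2 RPKM in WT replicates 1 and 2 and JMJD1B-/- replicates 1 and 2. WT replicate 2 thus stood apart from the other 3 libraries in these genes, and the results are given without it where it matters. All 14 HSPC markers were present. In the same order of libraries, Kit had 66.9, 62.5, 51.6 and 92.7 RPKM. Myb, the most abundant, had 191, 185, 137 and 211 RPKM. Both overlapped between the genotypes, but the list was not level. At an unadjusted p under 0.05 with limma, 6 of the 14 were lower in the knockout and 0 higher, against 6.33% and 3.81% of all genes.

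Of the 73 cytoskeleton genes, 17 (23.3%) were lower in the knockout at an unadjusted p under 0.05, against 6.33% of all genes tested, and 0 were higher, against 3.81% of all genes tested. Vill and Myo5c lay under 1 RPKM in both knockout libraries and Myl4 in both WT libraries. They were thus in the table only through the other genotype. At least 1 library of that other genotype had to lie above both low libraries, which favours a difference without forcing one. Myl4 overlapped between the genotypes. Vill is 1 of the 17. Among the 70 members and the genes left when all such genes were set aside, a choice made after the values were seen, 16 members were lower, against 5.98% of genes, and 0 higher, against 3.82%. None passed an adjusted p under 0.05 with limma, where 5 of all genes (0.0421%) did, and the lowest adjusted p of a member was 0.155. The gene-by-gene test likewise gave 0 members after adjustment, with 13 lower and 2 higher at an unadjusted p under 0.05, against 4.32% and 2.93% of all genes in that test and 0 of all genes after adjustment. In 28 of the same 70 members each knockout library lay below each WT library, against 21.4% of the genes left (22.7% of all genes), and in 9 members both lay above, against 20.3% (20.1% of all genes). The log2 fold change was negative in 51 of them (72.9%) and in 52.3% of genes, with a median of −0.18 over the 70 members and −0.02 over the genes left. The 17 lower members included Actg1, Actn1, Tln1, Vcl, Zyx, Vill, Tpm1, Tpm2, Tpm3, Tpm4, Myo5a, Myo7a, Myo10, Tubb2a, Tubb2b and Tubb6.

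The split held only in part under another scaling. With median-ratio scaling 16 members were lower and 4 higher (Arpc3, Tuba1b, Tuba1c and Tubb4b), where 6.32% of all genes were lower and 5.31% higher. With quantile normalization 15 were lower and 2 higher (Myo19 and Tubb4b). Quantile normalization also moved the calls of all genes, from 6.33% lower and 3.81% higher to 6.02% lower and 5.61% higher. With limma fitted without a trend, Actg1, Tln1, Vcl, Tpm3 and Tpm4 had unadjusted p-values from 0.0613 to 0.106, and with the gene-by-gene test Actg1, Myo10, Tpm3, Tpm4, Tubb2b and Tubb6 had p-values from 0.0579 to 0.208. The same choices ended calls among their partners, without a trend for Diap1, Scin, Capza2, Cnn3 and Ezr, and gene by gene for Diap2, Scin, Gsn, Marcks, Cnn3, Ezr and Klc1.

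The count of lower members was 6 without WT replicate 1, 5 without WT replicate 2, 26 without JMJD1B-/- replicate 1 and 15 without JMJD1B-/- replicate 2. In the same fits 1.49%, 2.29%, 11.03% and 15.3% of all genes were lower. Actn1 and Myo10 are genes the study picked from these libraries, so they are not independent evidence of a direction. In bulk samples fewer cells of a type and less RNA per cell cannot be told apart.

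The lower calls were spread over levels. Among members with a mean of 0.5 to 10 RPKM, 8 of 24 were lower, Vill among them, against 7.19% of all genes at that level. Between 10 and 50 RPKM 4 of 26 members were lower, against 5.72% of all genes, and above 50 RPKM 5 of 23 were, against 4.502%.

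**Figure D1:**
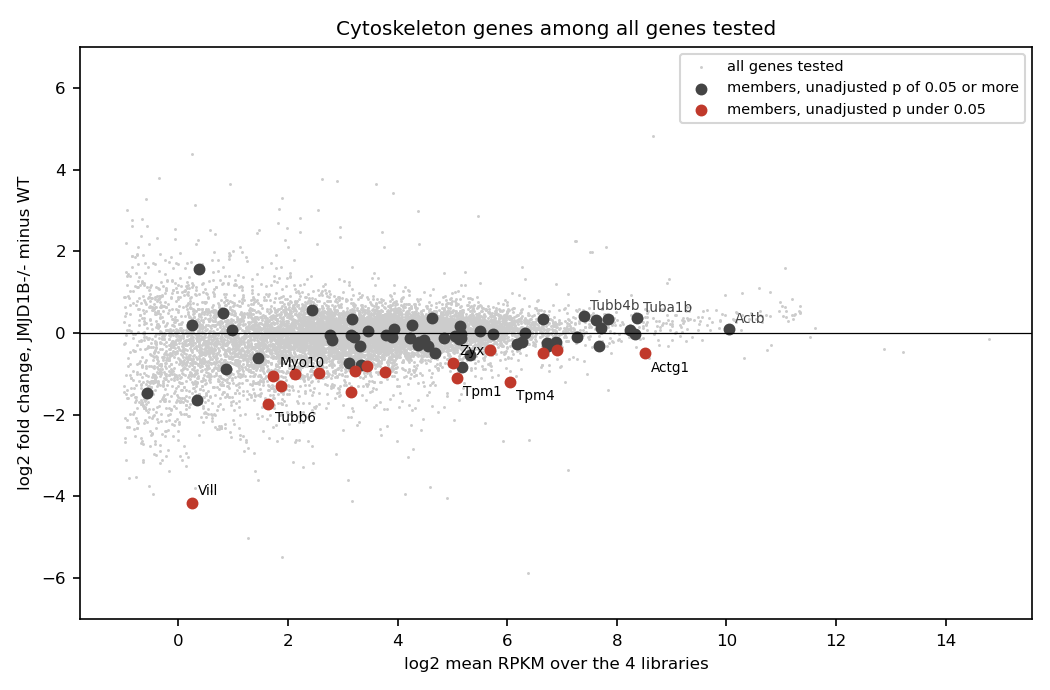
Each point is a gene, with the log2 of its mean RPKM over the 4 libraries on the x axis and its log2 fold change (JMJD1B-/- minus WT) on the y axis. Grey points are the 11863 genes tested, dark points are members with an unadjusted p of 0.05 or more and red points are the 17 members below that threshold, all of which lie below 0.

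The actins made up the most abundant group. Actb, the cytoplasmic beta-actin, had 1015 and 1024 RPKM in WT and 1164 and 1015 RPKM in the knockout, which overlapped, and the log2 fold change was 0.09 ± 0.225 (SE) and turned negative, at −0.22, with quantile normalization. Actg1, the cytoplasmic gamma-actin, had 437 and 413 RPKM in WT and 332 and 277 RPKM in JMJD1B-/- HSPCs. Both knockout libraries were below both WT libraries, with a log2 fold change of −0.48 ± 0.195 (SE), an unadjusted p of 0.0401 and an adjusted p of 0.477. Within each library, Actg1 was 0.430 and 0.403 times Actb in WT and 0.285 and 0.273 times Actb in the knockout, a ratio that does not depend on scaling by a constant. The 2 ranges did not overlap. Actb and Actg1 have nearly the same coding sequence, and how the counting shared reads between them is unknown, so their ratio is uncertain. Without WT replicate 1, WT replicate 2 or JMJD1B-/- replicate 2 the unadjusted p of Actg1 was 0.166, 0.116 and 0.136. Acta1, the skeletal alpha-actin, had 15.6 and 13.7 RPKM in WT and 18.8 and 13.2 RPKM in the knockout, which overlapped, and the summed RPKM of all 4 actins was 1470 and 1455 in WT and 1518 and 1308 in the knockout.

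The Arp2/3 complex, which starts a new filament as a branch on an older one, had 9 members, none with an unadjusted p under 0.05. Actr3, an actin-related core subunit, had 132 and 117 RPKM in WT and 141 and 82.1 RPKM in the knockout. Its genotypes overlapped, and without JMJD1B-/- replicate 1 its log2 fold change was −0.60 with an unadjusted p of 0.00967. Arpc2, a structural subunit, had 116 and 121 RPKM in WT and 105 and 85.6 RPKM in the knockout, without overlap, and an unadjusted p of 0.121 that became 0.0283 without JMJD1B-/- replicate 1. Arpc3, another structural subunit, had 92.0 and 85.0 RPKM in WT and 109 and 116 RPKM in the knockout, again without overlap, but in the other direction. Its unadjusted p was 0.0773, and 0.0365 with median-ratio scaling and 0.0418 with the gene-by-gene test. The alternative subunits Arpc1a and Arpc1b were singled out after their values were seen. Arpc1b was 2.76 and 1.70 times Arpc1a in the WT libraries and 1.24 and 1.07 times in the knockout libraries, so that the ranges did not overlap.

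Of the 6 actin-related proteins outside Arp2/3, 0 passed an unadjusted p of 0.05 with limma. Actr1a, the main filament subunit of dynactin, the adaptor of the dynein motor, had 37.9 and 33.7 RPKM in WT and 31.9 and 38.7 RPKM in the knockout. Actr1b, its close relative, had 20.6 and 18.3 RPKM in WT and 15.0 and 21.4 RPKM in the knockout, and Actr10, at the pointed end of dynactin, had 7.31 and 7.25 RPKM against 4.75 and 8.66 RPKM. In all 3 the genotypes overlapped, and Actr10 had an unadjusted p of 0.0475 without JMJD1B-/- replicate 2. Actr8 and Actr5, subunits of the INO80 chromatin remodeler, had WT means of 15.5 ± 2.34 and 8.95 ± 0.188 RPKM (SD, n = 2) and knockout means of 14.3 ± 0.733 and 8.72 ± 2.09 RPKM (SD, n = 2). Actr6, of the SRCAP remodeler, had 7.48, 6.31, 5.97 and 7.40 RPKM in WT replicates 1 and 2 and JMJD1B-/- replicates 1 and 2, and these nuclear genes overlapped as well.

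The WASP family switches Arp2/3 on, and profilin and cofilin turn monomers over. Wasf2, the gene of WAVE2, had 25.4 and 26.7 RPKM in WT and 20.3 and 21.5 RPKM in the knockout, and Was, of blood cells, had 22.955 and 22.4 RPKM against 18.3 and 20.5 RPKM. Neither gene overlapped between the genotypes, and their unadjusted p was 0.133 and 0.274, while Wasf2 had 0.0270 with the gene-by-gene test. Wasl, the broadly expressed relative of Was, had 9.46 and 12.3 RPKM in WT and 10.2 and 12.3 RPKM in the knockout. Cfl1, the main cofilin, had 294 and 351 RPKM in WT and 357 and 285 RPKM in the knockout, and Pfn1, the main profilin, had 193 and 207 RPKM against 199 and 242 RPKM. Cfl2, the cofilin of muscle, had 8.64 and 10.5 RPKM in WT and 9.26 and 8.54 RPKM in the knockout. All of these last 4 genes overlapped between the genotypes.

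Among crosslinkers, filamins bind filaments at wide angles and alpha-actinins bundle them. Flna, the most abundant, had 124 and 107 RPKM in WT and 104 and 89.8 RPKM in the knockout, without overlap and with an unadjusted p of 0.215. Actn1, an alpha-actinin of adhesion sites, had 11.7 and 12.8 RPKM in WT and 6.56 and 6.32 RPKM in the knockout, which did not overlap, while Actn4, its more abundant relative, had 46.3, 42.5, 43.2 and 49.1 RPKM and did. The unadjusted p of Actn1 was 0.00514, and 0.0729 without WT replicate 2.

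All 3 adhesion linkers were lower at an unadjusted p under 0.05, against 6.33% of all genes. Tln1, the talin that binds integrin tails, had 146 and 131 RPKM in WT and 103 and 103 RPKM in the knockout. Vcl, the vinculin that joins talin to actin, had 55.9 and 62.2 RPKM in WT and 43.7 and 43.9 RPKM in the knockout. Zyx, the zyxin of mature adhesions and stress fibers, had 39.2 and 41.5 RPKM in WT and 24.3 and 24.2 RPKM in the knockout. In each of the 3 genes both knockout libraries agreed closely and lay below both WT libraries. The log2 fold changes were −0.42 ± 0.170, −0.43 ± 0.173 and −0.73 ± 0.177 (SE) for Tln1, Vcl and Zyx, with adjusted p-values of 0.477, 0.477 and 0.258. Zyx kept an unadjusted p under 0.05 without any 1 library. Without WT replicate 1 the unadjusted p was 0.216 for Tln1 and 0.1004 for Vcl, without WT replicate 2 it was 0.0953 and 0.231, and Tln1 had 0.0566 without JMJD1B-/- replicate 2.

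Vill, a villin-like protein of the family that caps and bundles actin, had 2.46 and 2.20 RPKM in WT. In the knockout, replicate 1 is listed at 0 and replicate 2 at 0.0810 RPKM. The knockout values lay near or under what a few reads give, and the fitted log2 fold change moved from −1.68 with a pseudocount of 1 to −6.27 with 0.01. Vill reached 1 RPKM, the least a gene of the deposited table has in some library, and the mean needed for the fit through its WT values alone. That selection favours a lower value in the knockout, so Vill is no support for a direction.

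Of 4 tropomyosins, 4 were lower at an unadjusted p under 0.05, against 6.33% of all genes, and none passed an adjusted p under 0.05. Tpm3, the most abundant, had 117 and 117 RPKM in WT and 96.2 and 73.1 RPKM in the knockout. Tpm4 had 75.3 and 105 RPKM in WT and 59.2 and 25.7 RPKM in the knockout, so the knockout libraries lay below WT but far from each other. Tpm1 had 49.3 and 42.8 RPKM in WT and 22.5 and 20.6 RPKM in the knockout. Tpm2 had 5.67 and 4.81 RPKM in WT and 2.28 and 1.90 RPKM in the knockout. No tropomyosin overlapped between the genotypes, and the summed RPKM of the 4 was 247.7 and 269.4 in WT and 180.2 and 121.2 in the knockout.

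The log2 fold changes were −1.09 ± 0.187 for Tpm1, −1.19 ± 0.375 for Tpm4, −1.29 ± 0.347 for Tpm2 and −0.48 ± 0.194 for Tpm3 (SE), and adjusted p-values were 0.155, 0.389, 0.316 and 0.477. With a replicate block, where 2.16% of all genes passed an adjusted p under 0.05, Tpm1 and Tpm4 did. Whether replicate numbers pair the libraries is not known, and the deviations of equally numbered libraries correlated at −0.0543 across genes. Tpm1 kept an unadjusted p under 0.05 in each fit that left out a library, with log2 fold changes from −1.19 to −0.99. Tpm4 had −0.59 without JMJD1B-/- replicate 2, −1.79 without JMJD1B-/- replicate 1 and −0.95 with an unadjusted p of 0.101 without WT replicate 2. Tpm2 had an unadjusted p of 0.1001 and 0.0544 without WT replicate 1 or WT replicate 2. For Tpm3 the p was 0.144, 0.143 and 0.166 without WT replicate 1, WT replicate 2 or JMJD1B-/- replicate 2, the log2 fold change without the last was −0.28, and with median-ratio scaling the p was 0.0651. Within the tropomyosin pool, Tpm3 made up 47.4% and 43.4% in WT and 53.4% and 60.3% in the knockout.

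**Figure D2:**
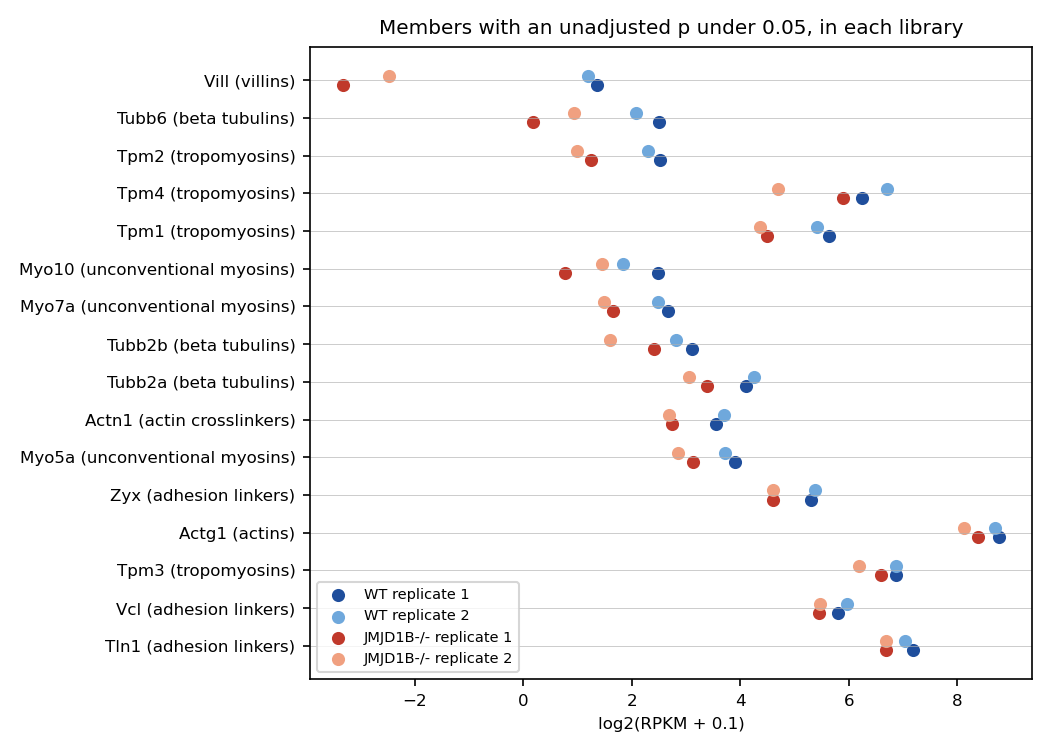
Each row is one of 16 members with an unadjusted p under 0.05, with its role, and each point is a library, on a log2(RPKM + 0.1) axis. In all 16 genes the red and orange points of JMJD1B-/- lie left of the blue points of WT. The genes were drawn because they were lower, so this direction follows from the choice. Vill was in the table only through WT.

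Nonmuscle myosin II pulls on filaments with heavy chains and 2 kinds of light chain. Myh9, the heavy chain of blood cells, had 231 and 218 RPKM in WT and 232 and 139 RPKM in the knockout, so that a single knockout library was low. Without JMJD1B-/- replicate 1 its log2 fold change was −0.70 with an unadjusted p of 0.00449, and without JMJD1B-/- replicate 2 it was 0.05. Myh10, its relative, had 25.0 and 42.3 RPKM in WT and 32.0 and 41.3 RPKM in the knockout, which overlapped. Myl6, the essential light chain, had 170 and 151 RPKM in WT and 148 and 154 RPKM in the knockout. The regulatory light chains Myl12b and Myl12a, neighbours with nearly the same sequence whose reads may be shared, had 80.5 and 77.7 RPKM against 73.3 and 59.8 RPKM, and 40.9 and 33.3 RPKM against 32.7 and 35.7 RPKM. Myl12b did not overlap between the genotypes, Myl6 and Myl12a did, and none of the 7 light chains had an unadjusted p under 0.05.

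Of 14 unconventional myosins, which carry cargo or link membranes to actin, 3 were lower at an unadjusted p under 0.05. That was 21.4%, against 6.33% of all genes, and 0 were higher, against 3.81%. Myo18a, the most abundant, had 31.9 and 35.1 RPKM in WT and 28.4 and 36.2 RPKM in the knockout, which overlapped. Myo5a, a carrier of organelles, had 14.8 and 13.1 RPKM in WT and 8.63 and 7.16 RPKM in the knockout. Myo7a, known from sensory hair cells, had 6.29 and 5.48 RPKM in WT and 3.06 and 2.71 RPKM in the knockout. Both lay lower in each knockout library than in each WT library, with log2 fold changes of −0.81 ± 0.235 and −1.0025 ± 0.312 (SE) and adjusted p-values of 0.346 and 0.386. Myo10, a motor of filopodia, had 5.50 and 3.46 RPKM in WT and 1.61 and 2.65 RPKM in the knockout, without overlap and with an unadjusted p of 0.0433. Without WT replicate 1 the unadjusted p was 0.107 for Myo5a, 0.143 for Myo7a and 0.328 for Myo10, and without WT replicate 2 it was 0.0530, 0.0810 and 0.0735. Myo10 had 0.0947 without JMJD1B-/- replicate 1, 0.0791 with quantile normalization and 0.0541 with a replicate block.

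Microtubules are built of alpha and beta tubulin pairs, and their genes lay in different directions. Tuba1b had 272 and 306 RPKM in WT and 334 and 413 RPKM in the knockout, Tuba1c had 189 and 212 RPKM against 237 and 273 RPKM, and Tuba1a had 164 and 186 RPKM against 200 and 240 RPKM. In all 3 both knockout libraries were above both WT libraries, and the unadjusted p-values were 0.111, 0.103 and 0.124, or 0.0438 for Tuba1b and 0.0421 for Tuba1c with median-ratio scaling. Without JMJD1B-/- replicate 1 they were 0.0335, 0.0488 and 0.0427. Quantile normalization lowered the log2 fold changes from 0.36, 0.34 and 0.33 to 0.09, 0.19 and 0.16, with unadjusted p-values of 0.514, 0.135 and 0.211. These 3 genes lie beside each other in the RefSeq annotation of GRCm38.p6 and are nearly the same in sequence, so their reads may be shared and their values are not separate evidence. The other 2 alpha tubulins, named after their values were seen, did not rise. Tuba8 had 13.995 and 10.8 RPKM in WT and 4.90 and 10.5 RPKM in the knockout, lower without overlap and with an unadjusted p of 0.0761, and Tuba4a had 55.4 and 52.4 RPKM against 52.9 and 52.8 RPKM, which overlapped.

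Tubb5, the main beta tubulin, had 297 and 289 RPKM in WT and 281 and 338 RPKM in the knockout, which overlapped. Tubb2a had 17.2 and 18.9 RPKM in WT and 10.4 and 8.20 RPKM in the knockout, and its neighbour Tubb2b, nearly the same in sequence, had 8.57 and 6.98 RPKM against 5.19 and 2.94 RPKM. Tubb6 had 5.53 and 4.12 RPKM in WT and 1.03 and 1.82 RPKM in the knockout. These minor beta tubulins were lower in both knockout libraries than in both WT libraries, with log2 fold changes of −0.96 ± 0.228, −0.97 ± 0.350 and −1.73 ± 0.439 (SE) and adjusted p-values of 0.258, 0.433 and 0.278. Tubb2a had an unadjusted p of 0.0508 without WT replicate 2, and Tubb6 had 0.0859 without WT replicate 1. Tubb2b had 0.187, 0.0834 and 0.0647 without WT replicate 1, WT replicate 2 or JMJD1B-/- replicate 2, and 0.0505 with quantile normalization. Tubb1 and Tubb4b were singled out after their values were seen. Tubb1, the beta tubulin of platelets, had 37.0 and 52.5 RPKM in WT and 38.2 and 16.0 RPKM in the knockout, which overlapped, and Tubb4b, a widely expressed beta tubulin, had 132 and 157 RPKM in WT and 169 and 218 RPKM in the knockout, which did not. Summed beta tubulin was 0.715 and 0.689 times summed alpha tubulin in WT and 0.610 and 0.591 times in the knockout. Of the gamma tubulins, which nucleate microtubules at centrosomes, Tubg1 had 8.13, 7.62, 8.62 and 11.7 RPKM and Tubg2 had 1.74, 0.580, 0.916 and 1.54 RPKM in WT replicates 1 and 2 and JMJD1B-/- replicates 1 and 2. Tubg1 was above WT in both knockout libraries, with an unadjusted p of 0.221 that was 0.0492 without JMJD1B-/- replicate 1, and Tubg2 overlapped.

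The partners of these proteins were read from lists of 130 further cytoskeleton genes, of which 16 (12.3%) were lower and 3 (2.31%) higher at an unadjusted p under 0.05, with a median log2 fold change of −0.22. Of all genes tested 6.33% were lower and 3.81% higher, with a median of −0.02. Both knockout libraries lay below both WT libraries in 55 of the 130 and above them in 12, against 22.7% and 20.1% of all genes. Nucleation and elongation partners had 10 of 16 genes with both knockout libraries below both WT libraries and 0 with both above. At an unadjusted p under 0.05, 2 of the 16 were lower and 0 higher. They were the formins, which extend unbranched filaments, listed as Diap2, with 8.30 and 6.68 RPKM in WT and 4.01 and 2.58 RPKM in the knockout, and Diap1, the most abundant, with 93.6 and 82.9 RPKM against 63.1 and 62.0 RPKM. Neither overlapped, and without WT replicate 1 their unadjusted p-values were 0.108 and 0.1599, while Diap1 had 0.0623 without WT replicate 2. Turnover and capping genes had 5 of 21 lower and 0 higher. Scin and Gsn, calcium-driven severing proteins, had 6.36 and 3.99 RPKM against 0.272 and 3.03 RPKM, and 13.7 and 12.3 RPKM against 8.61 and 6.26 RPKM, and Capza2, a capping subunit, had 59.9 and 67.6 RPKM against 44.6 and 46.5 RPKM. Their genotypes did not overlap. Without WT replicate 1 their unadjusted p-values were 0.195, 0.123 and 0.0707, without WT replicate 2 they were 0.0909, 0.0695 and 0.183, and Scin, lowest by far in JMJD1B-/- replicate 1, had a log2 fold change of −0.72 and a p of 0.0772 without it. With quantile normalization Scin had a p of 0.0738, and with median-ratio scaling 0.0531. Tmsb4x, the monomer-binding thymosin and the most abundant gene of the list, had 572 and 477 RPKM in WT and 629 and 280 RPKM in the knockout, and without JMJD1B-/- replicate 1 its log2 fold change was −0.90 with a p of 0.00247.

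Crosslinking, membrane and contractility partners had 4 of 21 genes lower and 2 higher at an unadjusted p under 0.05 with limma. These were 19.0% and 9.52%, against 6.33% and 3.81% of all genes. Marcks and Marcksl1, which hold actin to the membrane, had 4.19 and 5.31 RPKM against 2.78 and 1.10 RPKM, and 8.70 and 11.5 RPKM against 4.598 and 5.01 RPKM, and Pls1, a plastin that bundles filaments, had 6.00 and 6.91 RPKM against 3.31 and 2.68 RPKM. Cnn3, a calponin, had 7.49 and 13.1 RPKM in WT and 22.9 and 15.2 RPKM in the knockout, and Ezr, the ezrin that joins actin to the membrane, had 37.5 and 45.5 RPKM against 68.9 and 50.9 RPKM. The first 3 lay lower and the last 2 higher in both knockout libraries, and Tagln2, the most abundant, had 100.45, 94.8, 69.0 and 96.9 RPKM and overlapped. Without JMJD1B-/- replicate 1 the unadjusted p was 0.164 for Ezr and 0.0791 for Cnn3, and without WT replicate 1 it was 0.251 and 0.224. Ezr also had 0.0652 with median-ratio scaling, and quantile normalization gave 0.0789 for Ezr and 0.0533 for Marcks. Without WT replicate 1 it was 0.0882 for Marcks and 0.0631 for Pls1, and without WT replicate 2 it was 0.172 for Marcks, 0.113 for Pls1, 0.101 for Marcksl1 and 0.0716 for Ezr. Tagln2 had 0.0241 without JMJD1B-/- replicate 2.

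Microtubules have their own partners, which cap, sever or ride on them. Of 25 genes of microtubule dynamics 0 were lower and 0 higher with limma at an unadjusted p under 0.05. Of all genes 6.33% were lower and 3.81% higher. Stmn1, a tubulin-binding protein of dividing cells and the most abundant of the 25, had 143, 188, 123 and 154 RPKM. Of 24 genes of motors and dynactin 1 was lower and 1 higher (4.17% each), and in 10 of the 24 both knockout libraries lay below both WT libraries and in 3 above, against 22.7% and 20.1% of all genes. Klc1, a kinesin light chain, had 39.0 and 33.9 RPKM in WT and 20.8 and 26.2 RPKM in the knockout, and Dynll1, a dynein light chain, had 21.9 and 23.5 RPKM against 35.8 and 39.9 RPKM. Neither overlapped, with adjusted p-values of 0.395 and 0.273, and Klc1 had an unadjusted p of 0.130 and 0.0509 without WT replicate 1 or WT replicate 2. Dync1h1, the dynein heavy chain and the most abundant of that list, had 61.1, 59.9, 57.9 and 62.2 RPKM and overlapped.

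Many actin genes are activated by serum response factor (SRF), which binds a short DNA element called the CArG box. Srf itself had 9.13 and 10.3 RPKM in WT and 7.63 and 7.88 RPKM in the knockout, without overlap and with an unadjusted p of 0.219, and 0 of the 3 genes of SRF and its coactivators passed. Promoters of 64 of the 73 members were found by symbol in RefSeq for GRCm38.p6, and the 250 bases before each start were searched for the CArG box, whose reverse complement has the same form. It was found in 7 of the 64 genes (10.9%), in 2 of the 14 genes with a promoter among the 17 lower members, in 5 of the 50 among the others and in 1.41% of all tested genes with a promoter. Of all 32851 RefSeq promoter windows, 1.47% held it. Below are 5 of the 7 matches, shown because they hold the 2 lower members with the element and 3 others, each with 10 bases on either side and the element in capitals. They lie on the minus strand for Actg1 (chr11:120348566-120348595), Acta1 (chr8:123894829-123894858) and Myl6 (chr10:128493040-128493069), and on the plus strand for Vcl (chr14:20929161-20929190) and Myl9 (chr2:156775293-156775322). A match describes the letters and shows no binding.
Actg1: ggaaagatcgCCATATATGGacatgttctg
Vcl: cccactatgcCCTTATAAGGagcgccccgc
Acta1: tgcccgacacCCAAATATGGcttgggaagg
Myl6: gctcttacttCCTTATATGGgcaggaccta
Myl9: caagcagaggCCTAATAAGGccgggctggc
The first base of the element lay 90 bases before the start in Actg1, 227 in Vcl, 73 in Acta1, 50 in Myl6 and 161 in Myl9. Actg1 and Vcl were among the 17 lower genes, Acta1 and Myl6 overlapped between the genotypes, and Myl9, a regulatory light chain named here for its element, had 8.73 and 12.7 RPKM in WT and 8.59 and 4.64 RPKM in the knockout, with an unadjusted p of 0.0779.

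Markers of blood lineages moved with the same contrast. For comparison, 6.33% of all genes tested were lower and 3.81% higher at an unadjusted p under 0.05, and both knockout libraries lay below both WT libraries in 22.7% and above them in 20.1%. Of 13 megakaryocyte and platelet markers, 9 were lower and 0 higher at an unadjusted p under 0.05, with a median log2 fold change of −0.87. Their summed RPKM was 831.5 and 793.8 in WT and 336.5 and 468.6 in JMJD1B-/- HSPCs, and Pf4, the most abundant, had 348, 308, 92.8 and 167 RPKM. None of the list was at 0. Several of them, among them Itga2b, Vwf and Selp, are also known from stem cells, and Selp was picked by the study from these libraries. Their part in the lower tropomyosins, adhesion linkers, Actn1 and minor beta tubulins was not tested. In 11 of the 13 both knockout libraries lay below both WT libraries, and the other 2, the platelet receptor genes Gp1bb and Gp9, overlapped, with 4.96 and 4.58 RPKM against 4.55 and 4.70 RPKM, and 13.3 and 8.10 RPKM against 9.03 and 11.4 RPKM. Other platelet glycoprotein receptors, Gp1ba, Gp5 and Gp6, were among the 11, with 7.19 and 10.2 RPKM against 4.20 and 6.08 RPKM, 17.5 and 22.2 RPKM against 5.85 and 17.3 RPKM, and 7.54 and 6.29 RPKM against 1.41 and 2.91 RPKM.

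Basophil and mast cell markers were lower in 8 of the 8 genes analysed here, from a list of 12, with a summed RPKM of 512.6 and 582.1 in WT and 116.7 and 48.83 in the knockout, and Prss34, the most abundant, had 246, 258, 30.6 and 19.9 RPKM. Granulocyte markers were lower in 6 and higher in 3 of 10 genes tested, with sums of 304.6, 206.6, 137.6 and 63.98 RPKM and Mpo, the most abundant, at 131, 79.0, 21.4 and 12.1 RPKM. The 3 higher genes were S100a8, with 7.24, 4.74, 8.71 and 10.6 RPKM, S100a9, with 2.79, 1.41, 8.01 and 10.8 RPKM, and Retnlg. Retnlg had 7.10, 0.266, 46.5 and 6.45 RPKM and overlapped between the genotypes. Camp, a marker of late granulocytes, was not tested and was listed at 0.0948, 0, 0 and 1.03 RPKM. These values are in the order WT replicates 1 and 2 and JMJD1B-/- replicates 1 and 2. Monocyte and macrophage markers were lower in 3 of 10 genes, of which C1qb was in the table only through the knockout. Their sums were 110.5, 129.5, 116.4 and 35.45 RPKM, with Ccr2, the most abundant, at 36.5, 57.0, 46.7 and 8.20 RPKM. JMJD1B-/- replicate 2 was thus the lowest library in these sums, as in Tpm4, Myh9, Tubb1 and Tmsb4x. Erythroid markers went the other way, with 12 of 13 higher and 0 lower, sums of 855.1, 1184, 2152 and 2911 RPKM, none at 0, and Car1, the most abundant, at 223, 357, 707 and 706 RPKM. Proliferation genes were higher in 2 of 16, with sums of 1168, 1376, 1477 and 1536 RPKM and Mki67, the most abundant, at 206, 244, 293 and 250 RPKM. In 12 of the 16 both knockout libraries lay above both WT libraries and in 0 below, against 20.1% and 22.7% of all genes. All 16 had a positive log2 fold change. The order of these erythroid and proliferation sums was that of the summed alpha tubulins, at 695.0, 766.3, 828.4 and 988.9 RPKM. The part of any of these lists in the cytoskeleton values was not tested.

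Muscle and stroma could also bring actin and myosin RNA. Of 9 smooth muscle genes 3 were analysed here, Acta2, Mylk and Synpo2, with sums of 10.38, 10.07, 7.041 and 5.725 RPKM and 0 of them past an unadjusted p of 0.05. Synpo2 was in the table only through WT. Mylk, the most abundant, had 7.00, 5.02, 4.20 and 3.65 RPKM, and Myh11, Tagln, Cnn1 and Des were not analysed here. Of 12 skeletal muscle genes 5 were analysed here, with sums of 21.59, 18.63, 25.70 and 17.63 RPKM, of which Acta1 made up most, and 0 passed. Tnnt3 and Tnnc2 were in the table only through the knockout. Of 11 stroma and endothelium markers 9 were analysed here, and 4 of these, Col1a2, Sparc, Lepr and Emcn, were in the table only through WT. Of the other 5, 1 was lower (Pecam1) and 0 higher, and all 5 had a negative log2 fold change. The 9 genes had sums of 45.52, 78.12, 28.16 and 14.57 RPKM, with Pecam1, the most abundant, at 34.0, 33.9, 19.5 and 7.97 RPKM. Col1a1, a collagen of stroma, had 15.7 RPKM in WT replicate 2 and 0.997, 2.13 and 0.998 RPKM in WT replicate 1 and JMJD1B-/- replicates 1 and 2, and Col1a2, its partner chain, had 2.69, 9.78, 0.725 and 0.757 RPKM in WT replicates 1 and 2 and JMJD1B-/- replicates 1 and 2. Of 11 T and NK cell markers analysed here 7 reached 1 RPKM in a library of each genotype, and of these 1 was lower and 1 higher. The 11 genes had sums of 31.34, 45.96, 125.1 and 25.02 RPKM and Il7r, the most abundant, at 4.94, 10.2, 39.4 and 6.70 RPKM. Of 9 B cell markers 2 were analysed here, with sums of 3.730, 3.424, 3.038 and 0.766 RPKM, Cd79b the more abundant at 3.28, 1.99, 1.22 and 0.631 RPKM, and 1 lower. Of the HSPC markers, 6 of 14 were lower and 0 higher, with sums of 713.6, 677.9, 513.6 and 680.3 RPKM, and Cd34, a surface marker of progenitors, had 42.9, 43.5, 20.9 and 11.7 RPKM. Among the 5 sex-linked genes 0 passed. The 2 WT libraries lay far apart in these genes, with Xist at 0.0510 and 332 RPKM, so this test could not show whether sex differed between the genotypes. The part of these lists in the cytoskeleton values was not tested either.

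**Figure D3:**
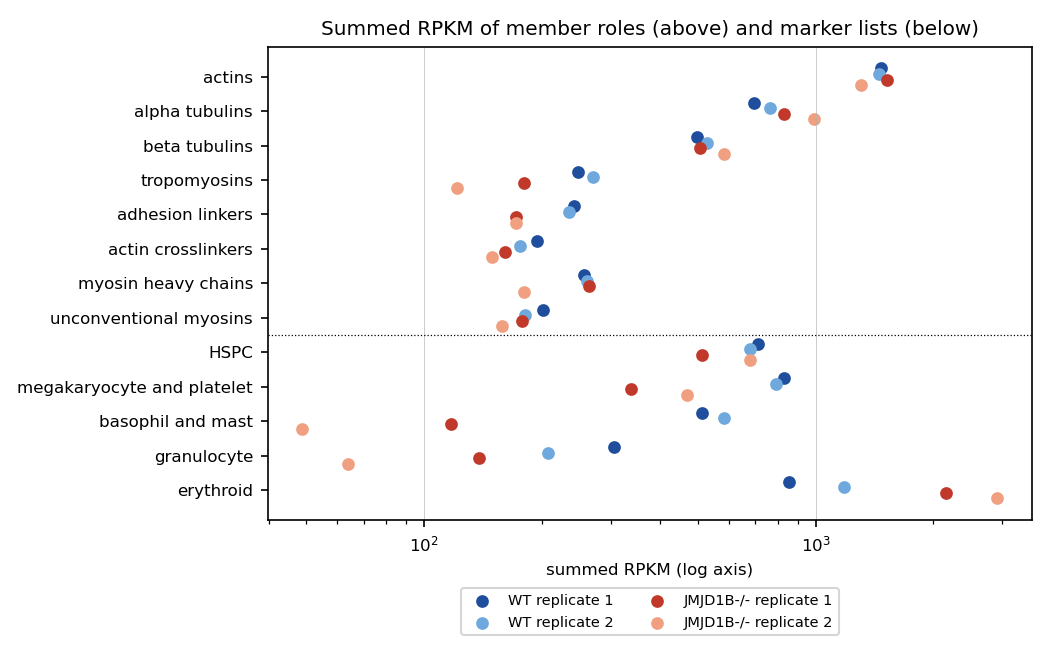
Each point is the summed RPKM of a group of genes in a library, on a log axis, with roles of cytoskeleton genes above the dotted line and marker lists below it. Tropomyosins, adhesion linkers, actin crosslinkers and unconventional myosins lie lower in both JMJD1B-/- libraries than in both WT libraries. So do megakaryocyte, basophil and granulocyte markers, while summed alpha tubulins and erythroid markers lie higher. Of the 10 granulocyte markers tested, 6 were lower and 3 higher at an unadjusted p under 0.05.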

How the data were processed

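Only the RNA-seq table of HSPCs was used. The authors deposited RPKM values to which 1 had been added, and this was removed. The submitters' processing notes name TopHat2, Novoalign and mm9, and the counting program and annotation are not given in the sources used here. Names with more than 1 entry (42) were averaged. Read totals were estimated from whole-number ratios of low values, and no counts were recovered. No column belonged to another sample. Genotypes were compared with limma 3.58.1 in R 4.3.3 on log2(RPKM + 0.1) with a trend and without a replicate term, after a check on simulated data. Tables and figures used Python 3.11.15, numpy 2.4.6, pandas 2.3.3, scipy 1.17.1 and matplotlib 3.10.9.

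Named with values were, in each role, the most abundant member, every member with an unadjusted p under 0.05 with limma, and Actb, Actn1 and Myo10. Only where a role then had fewer than 3 were its next most abundant members added, up to 3. Roles with several lower members thus left out abundant members that did not pass. Each further cytoskeleton list gave its most abundant gene and up to 3 genes per direction with an unadjusted p under 0.05 and no overlap. Kdm3b and the most abundant and defining genes of each marker list were also named. The members and lists were chosen with earlier results of these data known. Alternatives were pseudocounts of 1 and 0.01, no filter, a mean of at least 1 RPKM, median-ratio scaling, quantile normalization, limma without a trend, a gene-by-gene test, a replicate block and leaving out each library. Promoters were taken from RefSeq for GRCm38.p6 and were not matched to coordinates of the deposited values. A member and a list that these rules name are not reported here. ChIP-seq samples were not used here.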

Additional observations from a re-analysis of the deposited data

How the results depend on the processing

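The count of lower members was 17 with either pseudocount, without a filter and at a mean of at least 1 RPKM, 16 with median-ratio scaling, 15 with quantile normalization, 14 without a trend and 13 with the gene-by-gene test, and 17, 17, 17, 17, 16, 15, 12 and 10 of these were among the 17 of the fit reported. The others were Myo5c, which entered only through WT, and Myo6 without a trend, and Actr2, Myo6 and Wasf2 with the gene-by-gene test. With a pseudocount of 1 or 0.01, no filter and a mean of at least 1 RPKM, 6.69%, 6.05%, 6.33% and 6.16% of all genes were lower. With median-ratio scaling, quantile normalization, no trend and the gene-by-gene test, 6.32%, 6.02%, 6.47% and 4.32% were. Higher members numbered 4 with median-ratio scaling, 2 with quantile normalization, 1 without a trend and 2 with the gene-by-gene test. In those fits 5.31%, 5.61%, 2.92% and 2.93% of all genes were higher. The deviations of equally numbered libraries correlated at −0.0543 across genes, and whether replicate numbers pair the libraries is not known. The replicate block gave 20 lower members (16 of the 17, without Myo10, and Arpc1b, Myl9, Tuba8 and Tubb1) and 1 higher member (Tubb4b). In that fit 7.705% of all genes were lower and 4.81% higher. At an adjusted p under 0.05 it gave 3 members (Tpm1 and Tpm4 among them), where 2.16% of all genes passed. Leaving out single libraries gave 5 to 26 lower members, 0 to 5 higher members and 0 to 12 at an adjusted p under 0.05, with the lone library of a genotype assumed to vary like the pair. In the order WT replicates 1 and 2 and JMJD1B-/- replicates 1 and 2 left out, 1.49%, 2.29%, 11.03% and 15.3% of all genes were lower, 1.04%, 2.11%, 10.6% and 6.13% were higher and 0.0337%, 0%, 5.31% and 5.64% passed adjustment. All 17 lower genes kept a negative log2 fold change under all alternatives. Among them is Vill, which entered only through WT, a selection that favours a lower knockout value. With only genes of at least 1 RPKM in a library of each genotype, chosen after the data were seen, 16 of 70 members were lower and 0 higher, against 5.98% and 3.82% of genes. The median of the members tested stayed between −0.24 and −0.17.

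Some genes with an unadjusted p of 0.05 or more in the fit reported changed sign. With quantile normalization the log2 fold change was −0.22 for Actb, 0.0028 for Actr5, 0.0221 for Actr6, −0.0294 for Pfn1 and −0.19 for Tubb5. Without single libraries the log2 fold change ran in Actr1a from −0.16 to 0.11, in Actr8 from −0.26 to 0.0466, in Actr6 from −0.20 to 0.10, in Wasl from −0.13 to 0.24 and in Myh10 from −0.22 to 0.54. It ran in Myl6 from −0.17 to 0.0004, in Myl12a from −0.26 to 0.0369, in Dync1h1 from −0.0623 to 0.0397, in Cfl1 from −0.18 to 0.15 and in Cfl2 from −0.24 to 0.041. Further ranges were, in Myo18a from −0.24 to 0.12, in Tubg2 from −0.51 to 0.92, in Actb from −0.0057 to 0.19, in Acta1 from −0.15 to 0.36 and in Actr1b from −0.37 to 0.14. The range was, in Actr10 from −0.60 to 0.25, in Actr5 from −0.30 to 0.19, in Actr3 from −0.60 to 0.18, in Pfn1 from −0.0062 to 0.28 and in Myh9 from −0.70 to 0.0474. The last ranges were, in Tubb5 from −0.0598 to 0.20 and in Tmsb4x from −0.90 to 0.27. The cause of these changes was not tested. Of 576 values of 64 named genes with all 4 libraries, 534 kept their direction and side of the unadjusted threshold. Without 1 library 165 of 256 did, while 51 lost the threshold, 10 gained it and 30 changed sign. The total of JMJD1B-/- replicate 1 is estimated at 6100000 reads, or 12200000 without the division by 2 made because all 33 genes used had even counts there. Which total holds is unknown.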
